A study of Bos taurus with 6 samples.

Results

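The circular RNAs of the IMPA2 locus are back-spliced RNAs on chromosome 24 whose spans run from the gene IMPA2 into its unnamed neighbour ENSBTAG00000046547. A circular RNA (circRNA) forms when a downstream splice site is joined to an upstream one, and it is counted by reads that cross that back-splice junction. The members were chosen by annotation: each circRNA whose deposited gene annotation names IMPA2 or ENSBTAG00000046547 was taken. The locus itself was selected on measured values, the junction reads of its abundant circle in adult and calf fat, so the difference between the ages is given here as a description without a test. The rule found 2 of 14274 circRNAs, novel_circ_0007368 and novel_circ_0007369. The libraries came from subcutaneous fat of Qinchuan cattle, a Chinese breed, with 3 calf samples at 6 months and 3 adult samples at 24 months. No treatment or genetic change is recorded for either age, and all 6 samples came from a slaughterhouse. The labels do not say whether each sample came from a separate animal, so the p-values below measure the spread between these samples.

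IMPA2 codes for an inositol monophosphatase, an enzyme that removes the phosphate from inositol monophosphates and so frees inositol. Free inositol is the building block of the phosphoinositides, membrane lipids that carry signals from insulin and other hormone receptors, and its release closes the cycle after phospholipase C has cut such a lipid. The files give no name for ENSBTAG00000046547. In the RefSeq gene order of the assembly ARS-UCD2.0, used here for gene order only, the first gene after IMPA2 is CIDEA, which codes for a lipid droplet protein of fat cells, followed by LOC132343779, TUBB6 and AFG3L2. AFG3L2 stands under its own name in the deposited annotation, apart from the unnamed gene. Whether the unnamed gene is CIDEA, LOC132343779 or TUBB6 was not tested, and 0 circRNAs carry the names CIDEA or TUBB6.

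The libraries held 35616 to 39573 junction reads in calves and 37946 to 47298 in adults. Among 17 fat cell genes, 8 had circRNA reads, and PPARG, ADIPOQ, LPL and CD36 were among them, while circles of FABP4, LEP and LIPE were not read. Summed over that list there were 136, 151 and 173 reads in the calf libraries, and 123 to 128 in those of the adults. Circles of 3 of 10 immune cell genes had 2, 11 and 18 reads in calves and 46, 74 and 460 in adults, with PTPRC, CD3E and CD68 at 0. Circles of 4 of 8 fibroblast and matrix genes had 2 to 4 reads in calves and 22 to 39 in adults. Of skeletal muscle circles, adult 2 had 297 reads and each remaining library 0 to 3, and the 6 nerve and 6 epithelial genes had 0. Circles of 6 of 7 endothelial genes had 43, 49 and 44 reads in calves and 56, 79 and 54 in adults. In CPM the immune, matrix and endothelial lists were thus higher in each adult library than in each calf library. The endothelial gap was small (calves up to 1238, adults from 1351). The same order held for 111 of the 663 circRNAs tested (16.7%). By selection it also held for the abundant IMPA2 circle. The fat cell list lay the other way, at 3654 to 4857 CPM in calves and 2601 to 3373 in adults. Their part in the values below was not tested. In bulk fat, more cells of a type and more RNA per cell cannot be told apart.

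Both circles lay on the plus strand and shared their end. Novel_circ_0007368 ran from 43198220 to 43227184 on chromosome 24, a span of 28964 bases, and novel_circ_0007369 from 43206622 to 43227184, a span of 20562 bases that lies wholly inside the first. The coordinates stand on a genome build not given in the sources used here and are printed as deposited. The starts lay 8402 bases apart, so the circles differ only in the upstream site that the shared end is joined to. That upstream site was in IMPA2 for both circles. The start of novel_circ_0007369 coincided with the listed end of IMPA2 intron 8, and the start of novel_circ_0007368 lay 105 bases before the first base of intron 6. The shared end lay 2869 bases past the listed end of intron 2 of ENSBTAG00000046547. Of all circRNAs in the table, 27.7% shared their end with another on the same strand.

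Most of each span was outside IMPA2. The last feature listed for IMPA2, exon 11, ended at 43209021, and 18163 bases (62.7%) of novel_circ_0007368 and 88.3% of novel_circ_0007369 lay past it. A stretch of 8485 bases separates that exon from intron 1 of the unnamed gene, the first of its features listed. For novel_circ_0007368 the deposited annotation lists 5 introns of IMPA2 (6 to 10), exons 10 and 11 of IMPA2, and introns 1 and 2 of the unnamed gene. For novel_circ_0007369 it lists introns 9 and 10 and exons 10 and 11 of IMPA2 with the same introns 1 and 2. No exon is listed between introns 6 and 9 of IMPA2 or between introns 1 and 2 of the unnamed gene. The listed features add up to the deposited spliced lengths of 17096 and 8954 bases, and introns make up 97.0% and 94.4% of them. Such agreement was found for 87.0% of the 12292 circRNAs with an annotated gene. At this locus the deposited spliced length thus includes introns beside the exons 10 and 11, so it does not give the exon length of either circle.

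**Figure D1:**
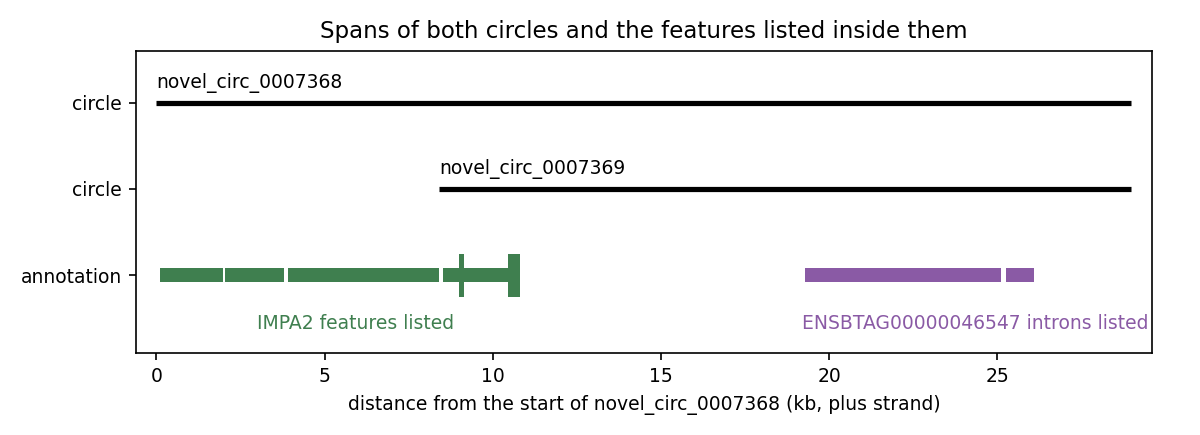
Spans of novel_circ_0007368 and novel_circ_0007369 (black lines) and the annotated features listed inside the first, by distance in kb from its start; tall boxes are exons, flat boxes introns, green for IMPA2 and purple for ENSBTAG00000046547. Both circles start in IMPA2 and share an end past the listed introns of the unnamed gene, and 62.7% of the longer span lies beyond the last listed IMPA2 exon.

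Circles across genes were rare. Only 142 circRNAs, 0.995% of the table, were annotated to 2 or more genes. Their median span was 32230 bases, against 6076 for circRNAs of 1 gene. Novel_circ_0007368 was longer than 95.8% and novel_circ_0007369 longer than 90.9% of all circRNAs. By mean CPM (junction reads scaled to a library total of 1000000), novel_circ_0007368 ranked 9 among the 142 and 41 among all 14274 circRNAs. Its 544 reads made up 0.229% of all junction reads.

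Novel_circ_0007368 was read in all 6 libraries. Its junction reads numbered 41, 37 and 32 in calves 1 to 3, then 117, 135 and 182 in the adults. The corresponding CPM values were 1102, 935 and 898 for the calves, then 3083, 2854 and 4553 for the adults. The groups did not overlap, the lowest adult standing 2.59-fold above the highest calf. The calves lay close together, while adult 3 stood above adults 1 and 2, and its exact 95% Poisson interval (3916 to 5265 CPM, counting error only) did not reach that of adult 1 (2550 to 3695) or adult 2 (2393 to 3378). Within its own library the circle ranked 120, 152 and 162 by reads in the calves, then 24, 29 and 15 in the adults.

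The calf mean was 978 ± 108 CPM and the adult mean 3497 ± 922 CPM (SD, n = 3 each), a ratio of 3.57. In the edgeR fit across all tested circRNAs its log2 change, adult minus calf, was 1.91 ± 0.26 (SE). This change ranked 32 when all 663, upward and downward, were ordered from the largest rise to the largest fall. That fit called 126 of 663 circRNAs (19.0%) in either direction and 57 (8.60%) as higher in adults. Every adult library stood above every calf library for 111 of the 663 (16.7%). The circle is among each of these sets because the locus was chosen on this contrast, and nothing is read from its place there. Its log2 change stayed positive in each of 13 other fits, from 1.62 without library 3 of both ages to 2.08 without adult 2. In the authors' deposited table it is listed as higher in adults, with group means of 138 and 37.0 scaled reads and a log2 fold change of 1.89, rank 24 by size among the 33 listed as higher.

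**Figure D2:**
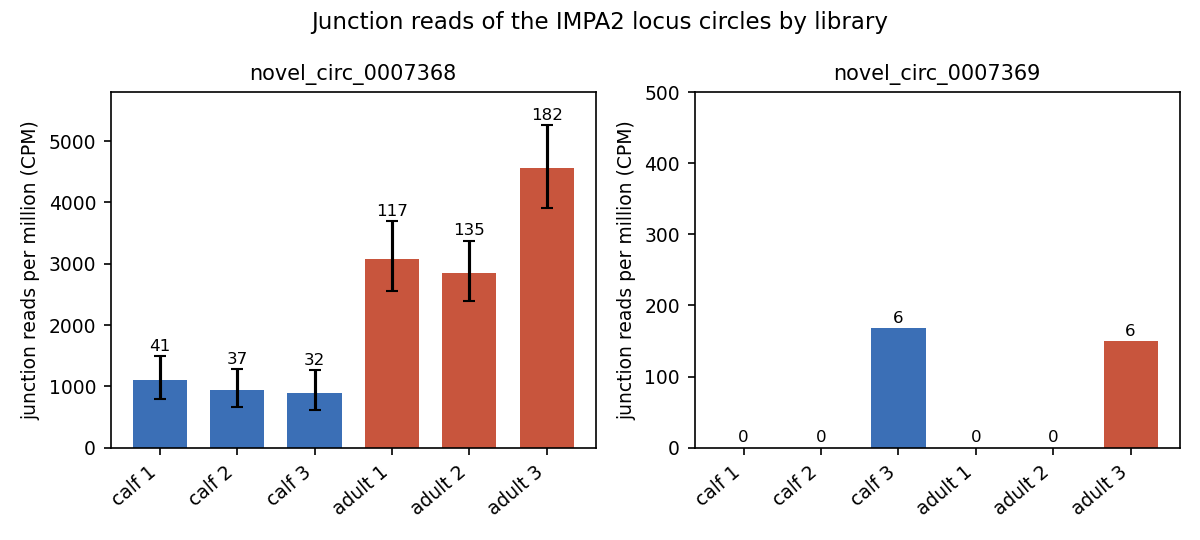
CPM of junction reads (y axis) of novel_circ_0007368 (left) and novel_circ_0007369 (right) in each library, calves in blue and adults in red; numbers are raw junction reads and error bars on the left are exact 95% Poisson intervals for counting error. The 3 adult libraries of the longer circle lie between 2854 and 4553 CPM, above the calves at 898 to 1102, while the shorter circle was read in calf 3 and adult 3 only; the axes differ.

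Novel_circ_0007369 was a minor form, with 12 reads in all. It had 6 reads in calf 3 and 6 in adult 3 and stood at 0 in the other 4 libraries. No count of 1 occurs anywhere in the table, whose smallest nonzero count is 2, so a single read cannot be told from none in those 4 libraries. Its level was 168 CPM in calf 3 and 150 CPM in adult 3, and it did not pass the filter on low counts. Without that filter its log2 change was -0.10. It made up 15.8% of the locus reads in calf 3 (6 of 38, exact 95% Clopper-Pearson interval 6.02% to 31.3%) and 3.19% in adult 3 (6 of 188, 1.18% to 6.82%). These intervals overlap narrowly, and they cover counting error only in 1 library per age. Over all libraries novel_circ_0007368 held 97.8% of the locus reads (544 of 556, 96.3% to 98.9%). The locus sum rested on it, with a calf mean of 1035 ± 87.9 CPM, an adult mean of 3547 ± 1008 CPM (SD, n = 3 each) and a log2 change of 1.83 ± 0.25 (SE).

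The deposited annotation also counts non-junction reads for each circle in the libraries that read it. The sources used here do not define such a read, but its behaviour can be read from nested circles. In 8279 of 8279 comparisons within a library, a circle that holds another had at least as many non-junction reads as the inner one. In 942 of 942 cases, a circle that holds 2 others without overlap had at least as many as both together. Non-junction reads of a circle were therefore never fewer than those of the circles inside it. Whether they add up exactly along the span was not tested. At the IMPA2 locus the span holds the 3′ part of IMPA2, the stretch behind it and the start of the unnamed gene. Its non-junction reads are therefore not a measure of IMPA2 messenger RNA alone. The protocols describe RNase R, which digests linear RNA, without making certain that these libraries were treated.

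The non-junction reads of novel_circ_0007368 numbered 186, 120 and 434 in calves 1 to 3, then 340, 625 and 642 in the adults. Calf 3 stood above adult 1, so on raw reads the ages overlapped. The median non-junction count of a library, over the 1070 circRNAs that each library read and whose mean was 10 such reads or more, ran from 106 in adult 1 to 226 in adult 2. Relative to that median, the log2 level of the locus was -0.05 and -0.40 in calves 1 and 2, 1.72 in calf 3, and 1.68, 1.47 and 1.79 in adults 1 to 3. Calf 3 thus lay with the adults, although its junction reads lay with the calves (log2 level 1.77, against 2.13 and 1.84 in calves 1 and 2, and 3.56 to 4.26 in adults). Compared with the mean of calves 1 and 2, the non-junction level of calf 3 was higher by 1.94 on the log2 scale, more than for 98.9% of the 1070 circRNAs. The same comparison of junction reads gave -0.21, more than for 35.9%.

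The adult minus calf difference in non-junction level was 1.22 on the log2 scale, and 1.87 without calf 3. For junction reads, centred the same way, it was 1.90, and 1.84 without calf 3. The median over the 1070 circRNAs was 0.05 for non-junction and 0.03 for junction reads. Junction and non-junction reads of the locus were thus both higher in adults than in calves 1 and 2, by similar amounts. These values come from the contrast on which the locus was chosen and carry no test.

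Per 100 non-junction reads calves 1 to 3 had 22.0, 30.8 and 7.37 junction reads, and adults 1 to 3 had 34.4, 21.6 and 28.3. Calves 1 and 2 lay within the adult range, and calf 3 was lowest. With each library centred on its median ratio, the circle stood at 4.38-fold and 4.32-fold the median circRNA in calves 1 and 2, and at 0.972-fold in calf 3. In adults 1 to 3 it stood at 3.59-fold, 3.67-fold and 4.68-fold. Its mean centred log2 ratio over all libraries was above that of 77.2% of the 1070 circRNAs, so higher ratios were common. The adult minus calf difference of the log2 ratio was 0.58 and turned to -0.14 without calf 3. The calf SD of 1.25 (n = 3) exceeded that difference, and the adult SD was 0.21 (n = 3). Over the 1070 circRNAs the middle 90% of such differences ran from -1.38 to 1.15.

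Because the circles are nested, the reads of calf 3 and adult 3 can be divided at 43206622, where the inner circle starts. The right part is given the count of the inner circle. The left part is given the remainder of the outer count, which may hold reads that cross the inner start. In calf 3, 375 of the 434 non-junction reads (86.4%) fell to the right part, shared by both circles, and 59 to the left part, which holds IMPA2 introns 6 to 8. In adult 3, 328 of 642 (51.1%) fell to the right part and 314 to the left. The right part is 71.0% of the span. Per kb the left part had 7.02 reads in calf 3 and 37.4 in adult 3, and the right part 18.2 and 15.95. Relative to each library's median non-junction count, the left part was at 0.450 in calf 3 and 1.70 in adult 3, and the right part at 2.86 and 1.77. By this division, most of the high non-junction count of calf 3 lay in the part with the last exons listed for IMPA2, the stretch behind them and the unnamed gene. For novel_circ_0007369 itself, the ratio was 1.60 junction reads per 100 non-junction reads in calf 3 and 1.83 in adult 3. The other 4 libraries give no inner count, so this division has 1 library per age and no replicate.

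**Figure D3:**
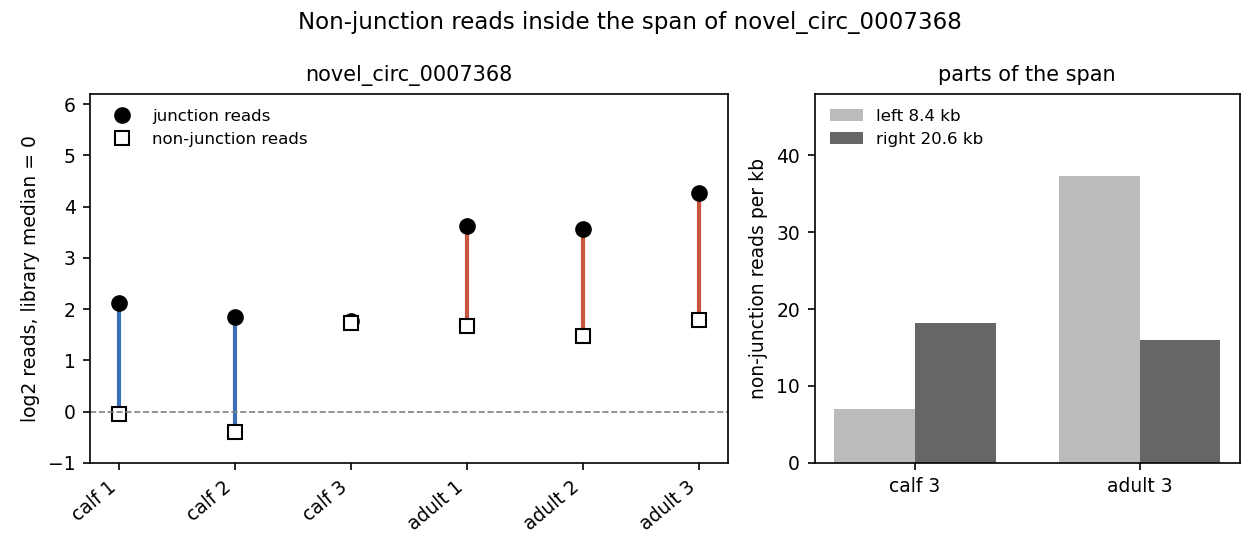
Left, log2 junction reads (filled circles) and non-junction reads (open squares) of novel_circ_0007368 in each library, relative to the library's median over 1070 circRNAs (dashed line at 0), joined by a blue line in calves and a red one in adults; right, non-junction reads per kb in the part of the span before the start of the inner circle (light) and after it (dark). In calf 3 the non-junction reads stand at the adult level while the junction reads do not, and its left part has 7.02 reads per kb against 37.4 in adult 3.

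Neighbouring genes on the chromosome had few circles. Within 1000000 bases of the locus there were 28 further circRNAs, 27 of them annotated to 12 host genes. The nearest was the circle of AFG3L2, a mitochondrial protease gene, 26154 bases past the shared end, with 2 reads in calf 1 alone. SPIRE1, which codes for an actin nucleator, gave 8 circRNAs with 6, 9 and 15 reads in calves and 13, 5 and 4 in adults. CEP76, a centriole protein gene, had 4, 11 and 7 reads in calves and 6, 5 and 8 in adults. LDLRAD4 had 7, 3 and 7 reads in calves and 5, 5 and 18 in adults, with adult 3 above the rest. VAPA, which codes for a membrane contact protein of the endoplasmic reticulum, was the one neighbour that passed the filter. It had 71, 52 and 61 reads in calves and 52, 88 and 47 in adults, with a log2 change of -0.09 ± 0.27 (SE; adjusted p = 0.869 by edgeR over 720 host features). The other 7, APCDD1, PIEZO2, SLMO1, PSMG2, SEH1L, CEP192 and RNMT, had 2 to 17 reads over all libraries.

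Among the other circRNAs annotated to 2 or more genes, 50 passed the filter and 21 of them (42.0%) were called by edgeR, 3 higher and 18 lower in adults, against 19.0% of all tested. Their median log2 change was -0.28, against 0.00 over all 663. Whether this share differs from that of other circRNAs was not tested.

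The circles of other genes in inositol and phosphoinositide metabolism were taken from 5 lists of 108 genes in all. Of these genes 51 had circRNA reads and 10 passed the filter. By edgeR 0 of the 10 were called in either direction, against 12.5% of the 720 host features tested, and 2 had an unadjusted p under 0.05. DESeq2 and limma-voom also called 0. The median log2 change of the 10 was 0.35, with 7 above 0, against 0.01 over all host features. In the fit without adult 3, where 11 listed genes passed the filter, the median was 0.13.

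The first list holds genes for making, freeing and importing inositol, and for building inositol into phosphatidylinositol and carrying that lipid between membranes. It had 38 reads over 8 of 18 genes, and 0 passed the filter. Its phosphatase genes with reads, BPNT1 and INPP1, are named after their values were seen. BPNT1, a phosphatase gene of the same enzyme family as IMPA2, had 2, 3 and 0 reads in calves and 2, 6 and 0 in adults. INPP1, whose enzyme removes a phosphate from inositol bisphosphate, had 2 reads in adult 1 alone. No circle annotated only to IMPA1, the paralogue of IMPA2, was read. The IMPA2 locus had 556 reads. It was chosen on the junction reads of its abundant circle, so nothing is read from its higher count. The list counts only circles annotated to 1 gene, while both circles of the locus are annotated to 2.

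Further along the pathway, circles were more abundant. IPMK, an inositol polyphosphate kinase gene, had 54, 30 and 53 reads in calves and 46, 52 and 44 in adults. The ages overlapped, with a log2 change of -0.05 ± 0.29 (SE; adjusted p = 0.938 by edgeR with Benjamini-Hochberg adjustment, as for the genes that follow). ITPR2, which codes for a calcium channel opened by inositol trisphosphate, had 34, 47 and 34 reads in calves and 42, 51 and 75 in adults. The log2 change, 0.46 ± 0.28 (SE), missed the threshold (adjusted p = 0.330). PLCB4, a phospholipase C gene whose enzyme releases inositol trisphosphate, had 41, 44 and 53 reads in calves and 33, 23 and 26 in adults. No adult library reached a calf library, but how many host features had that order was not counted, so nothing is read from it. The log2 change, -0.83 ± 0.29 (SE), missed the threshold after adjustment (adjusted p = 0.0788). PIK3R1, which codes for the regulatory subunit of the insulin-responsive phosphoinositide 3-kinase and is named after its values were seen, had 6, 9 and 12 reads in calves and 27, 15 and 17 in adults (log2 change 1.04 ± 0.46 SE, adjusted p = 0.156). Scaled to library totals, calf 3 lay above adult 2, so the ages overlapped for PIK3R1.

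The remaining 6 tested genes had log2 changes from -0.08 for SACM1L, a phosphoinositide phosphatase gene, to 0.60 for PPIP5K2, an inositol phosphate kinase gene, which are named as the ends of that range. By list, 2 inositol phosphate kinase or phosphatase genes, 2 phosphoinositide kinase genes, 3 phosphoinositide phosphatase genes and 3 phospholipase C or trisphosphate receptor genes were tested. Their median log2 changes were 0.27, 0.67, 0.14 and 0.40.

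**Figure D4:**
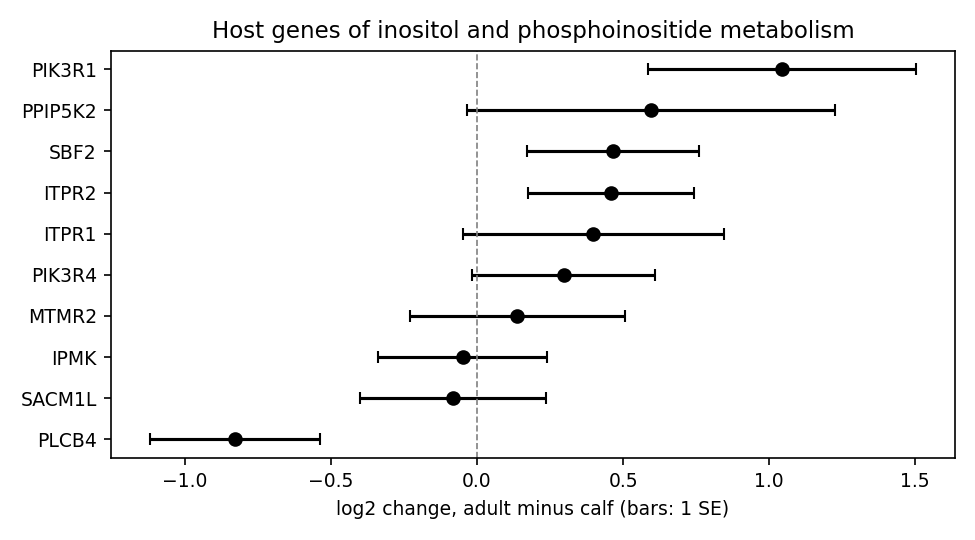
Log2 change of junction reads, adult minus calf, of the 10 tested host genes of inositol and phosphoinositide metabolism (points) with 1 SE (bars), from the edgeR fit over 720 host features with n = 3 per age. The values run from -0.83 for PLCB4 to 1.04 for PIK3R1, and 0 of the 10 passed after adjustment.

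In the authors' deposited table of gene ontology terms, IMPA2 is listed under 59 of 1682 terms and ENSBTAG00000046547 under 0. Of those 59, 1 had a corrected p under 0.05, against 4 of all 1682. It was the broad term for single-organism metabolic process (25 of 58 host genes, corrected p = 0.0271 in the authors' deposited table). In the same authors' deposited table, inositol phosphate metabolic process holds 2 of the 58 host genes, IMPA2 and SCP2, with a corrected p of 1. Under inositol monophosphate phosphatase activity, the authors' deposited table holds IMPA2 alone. The abundant circle of the locus is itself in the authors' list of circRNAs higher in adults, the contrast on which the locus was chosen. These terms therefore give no separate support for a role of IMPA2.

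The pattern of novel_circ_0007368 over the 6 libraries was compared with that of 571 tested circRNAs of 1 gene, by Pearson correlation of log2(CPM + 25). The closest was novel_circ_0012166 of ADGRE1, a surface receptor gene of macrophages, at r = 0.994. Its reads numbered 10, 14 and 28 in adults, and no calf library had any. ADGRE1 is also a member of the immune cell list above. Next came novel_circ_0003625 of RPS6KC1, a kinase-like gene, at r = 0.979, with 10, 18 and 18 reads in adults and none in a calf library. Novel_circ_0010654 of TNS3, which codes for a focal adhesion protein, followed at r = 0.975, with 19, 22 and 15 reads in calves and 48, 65 and 59 in adults. SESN1, a stress-response gene that restrains mTOR signalling (novel_circ_0013439, r = 0.966), and SMC5, a chromosome maintenance gene (novel_circ_0012894, r = 0.957), completed the 5 closest. Each of the 5 had higher CPM in every adult library than in any calf library, as had 111 of the 663 circRNAs tested (16.7%). The 5 were picked for likeness to a circle with that order. Across 6 libraries that fall into 2 ages, such correlations describe mainly that step, and 24 of the 571 were above 0.9. All circles share the same libraries and depth.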

How the data were processed

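Junction reads were measured in 6 libraries of subcutaneous fat, 3 per age. For each of 14274 circRNAs the authors deposited a whole-number count of junction reads per library, beside a column headed TPM whose values equalled CPM recomputed from the counts. Cufflinks, TopHat, TopHat2 2.0.14 and Trim Galore appear in the submitters' processing notes without a role, the circRNA caller and build being not given in the sources used here. In the authors' deposited comparison, group means are a scaled signal beside log2 fold changes and p-values, and the authors' deposited ontology table holds corrected p-values.

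Counts were compared with edgeR 4.0.16 (quasi-likelihood, TMM, filterByExpr) in R 4.3.3, with Benjamini-Hochberg adjustment over all tested features and a threshold of 0.05. For host genes, reads were summed over circRNAs of 1 gene, which left out 142 with 2 or more genes and 1982 with none, and the IMPA2 locus was added as 1 feature. DESeq2 1.42.0 and limma 3.58.1 (voom) were alternatives. The method was tested on simulated data. The ratio used a pseudocount of 0.5. The members and lists were chosen with earlier results of these data known. Named were each member, neighbours within 1000000 bases, listed host genes that passed the test plus, of the rest, the 3 with the highest mean CPM (other listed genes in the text were chosen after their values were seen), and the 5 circles closest in pattern. All 6 libraries were assigned, and 0 columns were left unassigned. Depth limits the minor circle, and the smallest nonzero count is 2. SE values come from the quasi-likelihood F statistic.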

Additional observations from a re-analysis of the deposited data

How the results depend on the processing

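The log2 change of novel_circ_0007368 was positive in 13 of 13 other fits (1.62 to 2.08), and so was that of the locus sum (1.60 to 1.97). Keeping only circles annotated to both genes left the sum as it was, since both circles are. Without library 3 of both ages the circle's change moved to 1.62 ± 0.20 (SE), by more than the spread between replicates. The sum without its most abundant circle gave no value, since 12 reads did not pass the filter. The number of circRNAs called, 126, was 202 without a filter on low counts (97 higher, 105 lower), and 71 (without calf 1) to 138 (without adult 3) when 1 library was left out; it was also under 126 by over 1.5 times without calf 2 (74), adult 1 (82) or adult 2 (81). With the replicate number as a replicate block it was 56. Deviations of same-numbered libraries from their age means correlated at -0.05, 0.09 and 0.01. With 3 libraries per age, such values cannot show whether same-numbered libraries share more than a number. The calls split 57 higher to 69 lower, against 51 to 78 with library totals only. Host features called, 90, ran from 57 (without calf 2) to 123 with 1 library left out. The median log2 change of the listed host genes that passed each fit's filter, 0.35 over 10 genes, was 0.13 over 51 without a filter and 0.17 over 10 without library 3 of both ages. With 1 library left out it ran over 11 to 13 genes from 0.13 (without adult 3) to 0.34 (without adult 2), so these medians are over different numbers of genes; the number called stayed at 0 throughout. The ratio difference of 0.58 was 0.59 with a pseudocount of 1 and 0.68 without centring, and ran from -0.14 without calf 3 to 0.95 without calf 1. The cause of these shifts was not tested. Depth limits the shorter circle, with 12 reads in all.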
